A study of Homo sapiens with 9 samples.

Results

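The genes described are 10 members of the NRF2 oxidative stress pathway, taken by symbol from a list of 10: NFE2L2, KEAP1, NQO1, HMOX1, GCLC, GCLM, TXNRD1, SLC7A11, AKR1C1 and AKR1C3. All 10 were present among the 27111 genes of the tables, and all 10 were among the 17108 genes with enough counts to be tested. They were measured by RNA-seq in multicellular tumor spheroids (MTSs) of PC-3, a human prostate cancer cell line derived from a bone metastasis. Cells had been transduced with pSIN lentiviral particles and selected with puromycin, and they carried either an empty vector (Empty), the long splice variant NF-YAl or the short splice variant NF-YAs of NF-YA. The transgenes were murine, all 3 groups shared the vector backbone and the selection, and the study describes the lines as stable, so a group is 1 transduced line and its libraries are repeats of that line. There were 3 libraries per group, each from a pool of MTSs of PC-3 cells grown in low-attachment wells with Matrigel, and the study performed 3 independent experiments. Libraries carry the letters of their labels, which run A, B, C for Empty, the same for NF-YAs, and A, B, D for NF-YAl.

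NRF2, the product of NFE2L2, is a transcription factor of the basic leucine zipper class. KEAP1 binds it in the cytoplasm and presents it to a CUL3 ubiquitin ligase, so that it is degraded, and oxidants or electrophiles that modify KEAP1 let NRF2 accumulate and enter the nucleus. There it pairs with small MAF proteins on antioxidant response elements (AREs) and raises genes for glutathione synthesis, thioredoxin reduction, quinone reduction, heme breakdown and carbonyl reduction. NF-Y, of which NF-YA is the subunit that contacts DNA in a sequence-specific way, binds the CCAAT box, a frequent element of promoters. The question was whether more of either NF-YA variant went with other levels of these genes in PC-3 MTSs.

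Most of the 10 members did not pass the test. NQO1 was lower in both NF-YA groups, AKR1C1 was lower in NF-YAs, and no member was higher in any comparison at the threshold used, an adjusted p under 0.01 by edgeR's quasi-likelihood test over all tested genes. In NF-YAl against Empty, 1 of the 10 members was lower and 0 were higher, beside 9.54% of all tested genes lower and 10% higher. In NF-YAs against Empty, 2 were lower and 0 higher, beside 10.5% and 12.1% of all tested genes. Between NF-YAl and NF-YAs 0 members passed in either direction, where 4.70% of all tested genes were higher in NF-YAl and 6.25% lower. Such counts, of 10 members, are not set apart from the background. At an unadjusted p under 0.05 edgeR gave 1 member higher and 3 lower in each comparison with Empty, and 0 higher and 1 lower between the NF-YA groups. The share of all tested genes at this unadjusted threshold was not counted, so these numbers are no result about the members. DESeq2, at the adjusted threshold, gave 0 higher in all comparisons, and 1, 3 and 0 lower. In the same order it called 4168, 4676 and 2871 of all 17108 tested genes, both directions together. AKR1C1 in NF-YAs was also the only member that met the study's rule for a differentially expressed gene, which adds an absolute log2 fold change (log2FC) above 1. The rule took 9.34% of all genes there, 8.27% in NF-YAl against Empty and 4.61% between the NF-YA groups. The median log2FC of the 10 members was -0.13 in NF-YAl, where the median over all tested genes was 0.011, and -0.18 in NF-YAs, where it was -0.0026. Both comparisons use the same Empty libraries.

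**Figure D1:**
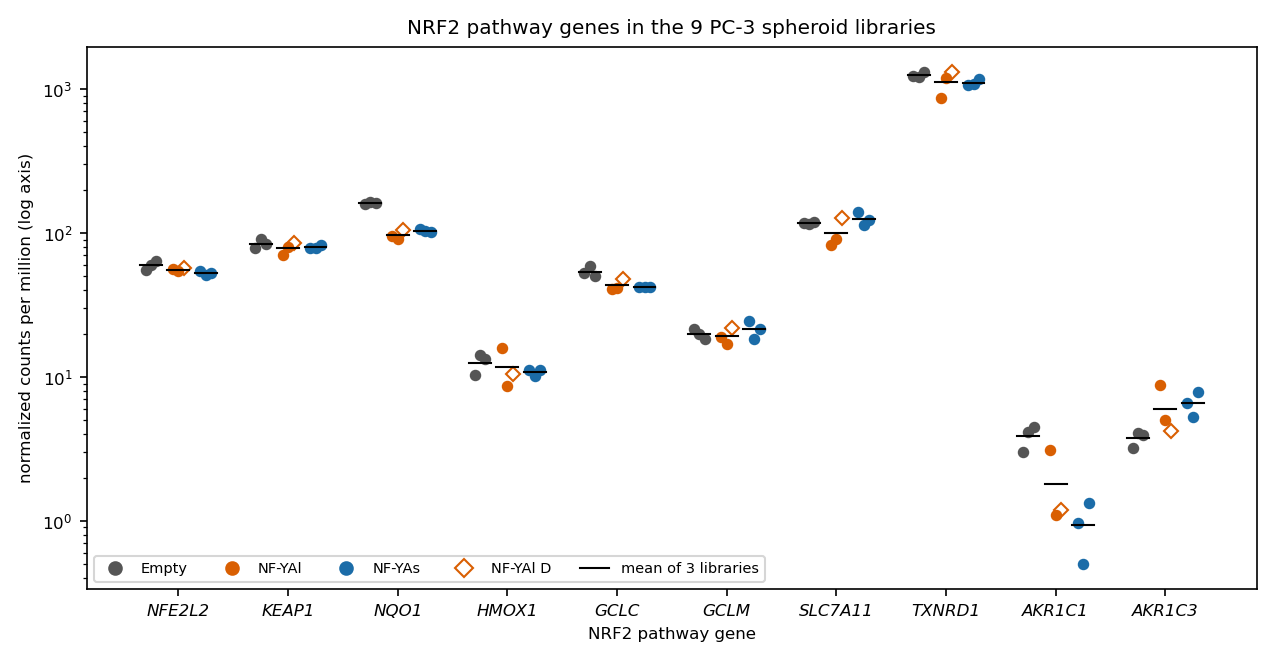
Normalized CPM of the 10 NRF2 pathway genes, on a log axis, in each of the 9 libraries, with points for libraries, black lines for the mean of 3 libraries and an open diamond for NF-YAl D. NQO1 in Empty (160 to 165) stands above both NF-YA groups (90.6 to 106), AKR1C1 in NF-YAs (0.498 to 1.34) stands below Empty (3.02 to 4.49).

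The promoters of 5 members are shown because NF-YA is a CCAAT-binding protein and because these members passed the test, missed it with all NF-YA libraries on 1 side of Empty (GCLC and AKR1C3) or were the most abundant (TXNRD1). Each line is the 250 bases before the transcription start in RefSeq (GRCh38.p14), 5′ to 3′ on the strand of the gene. Every window matched GRCh37, the build the authors aligned to, at 1 place, and positions are given in GRCh37. They are chr16:69760464-69760713 on the minus strand, chr6:53409900-53410149 on the minus strand, and chr12:104680560-104680809, chr10:5005357-5005606 and chr10:5136356-5136605 on the plus strand. Capitals mark CCAAT on either strand (ATTGG on the strand shown) and the ARE core TGACNNNGC on either strand, where N is any base. TXNRD1 and AKR1C3 each have 2 windows, of which the downstream one is shown, and the TXNRD1 window not shown holds 1 CCAAT and 2 ARE cores against 1 of each in the window shown.
NQO1: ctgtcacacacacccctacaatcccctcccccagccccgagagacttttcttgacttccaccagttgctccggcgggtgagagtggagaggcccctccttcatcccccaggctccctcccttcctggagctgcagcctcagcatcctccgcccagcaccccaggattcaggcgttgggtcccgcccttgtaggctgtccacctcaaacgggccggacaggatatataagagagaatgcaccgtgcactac
GCLC: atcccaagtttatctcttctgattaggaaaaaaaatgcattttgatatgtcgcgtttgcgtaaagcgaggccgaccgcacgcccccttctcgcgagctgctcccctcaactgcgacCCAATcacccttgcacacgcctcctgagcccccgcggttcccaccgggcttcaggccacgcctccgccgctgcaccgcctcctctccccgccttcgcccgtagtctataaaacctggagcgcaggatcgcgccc
TXNRD1: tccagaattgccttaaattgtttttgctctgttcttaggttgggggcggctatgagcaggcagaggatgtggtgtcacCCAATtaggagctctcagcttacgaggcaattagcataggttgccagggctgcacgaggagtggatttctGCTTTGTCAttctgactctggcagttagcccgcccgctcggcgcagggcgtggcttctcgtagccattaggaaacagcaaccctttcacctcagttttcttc
AKR1C1: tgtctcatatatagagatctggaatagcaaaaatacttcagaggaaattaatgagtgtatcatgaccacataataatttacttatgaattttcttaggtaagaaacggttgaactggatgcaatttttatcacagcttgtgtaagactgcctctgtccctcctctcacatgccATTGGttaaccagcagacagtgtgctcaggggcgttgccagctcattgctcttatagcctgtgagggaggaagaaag
AKR1C3: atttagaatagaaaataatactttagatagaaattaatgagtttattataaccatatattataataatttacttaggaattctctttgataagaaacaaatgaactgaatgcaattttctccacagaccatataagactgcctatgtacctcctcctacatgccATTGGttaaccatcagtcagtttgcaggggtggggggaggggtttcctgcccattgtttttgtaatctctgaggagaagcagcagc

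RefSeq windows of 300 bases, from 250 before to 50 after the start, were found for 8 of the 10 members (12 windows), with none for HMOX1 or SLC7A11. CCAAT was present in 4 of these 8, namely GCLC (its first base 134 bases before the start), TXNRD1, AKR1C1 (77 bases before the start, on the minus strand) and AKR1C3. By gene, as counted here, it was also present for 39.7% of all 27305 gene symbols with a window. TGACNNNGC was present in 3 of the 8, KEAP1, GCLM and TXNRD1, and for 16.1% of all these symbols. The motifs overlapped each other in no window of a member. AKR1C1 and AKR1C3 both hold CCAAT on the minus strand. Whether the motif bears on the level of any member was not tested. NQO1 has neither motif in these letters, and nothing follows from that about sites elsewhere.

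NF-YA was checked first, as the overexpressed gene. NFYA stood at 89.2, 96.7 and 89.4 CPM (counts scaled to library size by the trimmed mean of M-values) for Empty A, B and C, at 287, 383 and 353 CPM for NF-YAl A, B and D, and at 264, 263 and 254 CPM for NF-YAs A, B and C. Every NF-YA library was above every Empty library, as the labels say. The log2FC was 1.89 (SE 0.112, adjusted p = 6.41e-07) in NF-YAl and 1.51 (SE 0.111, adjusted p = 2.21e-06) in NF-YAs, by edgeR. Reads were aligned to human transcripts, so murine and human NF-YA reads cannot be separated in this value.

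Total expected counts ran from 18076979 to 27163976 per library, and 20072 to 20717 genes had a count in a library. Replicates correlated at 0.977 to 0.996 on the log2 CPM scale, and NF-YAl D was the library farthest from its replicates. In NF-YAl D the 7SL and 7SK RNAs (RN7SL1, RN7SL2 and RN7SK) took 13.0% of the summed TPM (RSEM's transcript abundance, scaled for length and depth), against 26.7 to 40.5% in the other libraries, and the TPM of most genes there were raised, with a median ratio to the mean library of 1.59. TPM are therefore given below after each library was divided by this ratio, and tests rest on counts. Of the epithelial markers, KRT8 was at 199 to 231 TPM for Empty, 80.5 to 90.1 for NF-YAl, and 115 to 134 for NF-YAs, and KRT18 at 218 to 353 TPM over all libraries, while EPCAM and CDH1 were at 0.520 to 4.20 TPM. KLK3, the prostate-specific antigen gene that PC-3 is known not to express, was listed at 0 in all libraries. The summed level of the 4 immune markers was 39.9 to 52.8 TPM for Empty, 15.4 to 26.9 for NF-YAl, and 20.03 to 26.7 for NF-YAs, nearly all from CD68, with CD3E at 0 in all NF-YA libraries. The 4 endothelial markers summed to 8.61 to 9.96 TPM for Empty, 68.8 to 155 for NF-YAl, and 39.5 to 60.1 for NF-YAs, nearly all from KDR in the NF-YA groups, and CDH5 stayed at 0.025 to 0.136 TPM. The 4 fibroblast markers summed to 0.210 to 0.479 TPM. The 5 markers of luminal cells summed to 6.37 to 9.94 TPM over all libraries. KRT8, CD68 and KDR moved with the groups compared below, and their part in the results was not tested.

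Per length of transcript, TXNRD1 was by far the most abundant member, at 407 ± 21.1 TPM in Empty (SD, n = 3), 371 ± 72.5 in NF-YAl and 357 ± 19.8 in NF-YAs. NQO1 came next in each group, with 83.2 ± 0.675 TPM for Empty, 50.3 ± 3.47 for NF-YAl, and 52.8 ± 0.996 for NF-YAs. KEAP1 (43.4 ± 2.70 TPM in Empty) and NFE2L2 (26.9 ± 2.0) followed, in the same places in all groups, while SLC7A11 stood above GCLC in NF-YAs alone (16.3 ± 1.65 against 14.2 ± 0.127 TPM). In Empty the lower places went to GCLC (18.3 ± 1.23 TPM), SLC7A11 (15.3 ± 0.440), HMOX1 (10.8 ± 1.70), GCLM (5.05 ± 0.442), AKR1C3 (4.36 ± 0.512) and AKR1C1 (3.93 ± 0.769). The libraries of GCLM and AKR1C3, and those of AKR1C3 and AKR1C1, overlapped there, and the other neighbours did not. AKR1C3 stood above GCLM in both NF-YA groups (7.07 ± 2.99 TPM in NF-YAl and 7.61 ± 1.51 in NF-YAs), and AKR1C1 was last in every group. In NF-YAl the neighbours from GCLC through SLC7A11, HMOX1 and AKR1C3 down to GCLM overlapped pair by pair, GCLM did not overlap with AKR1C1, and in NF-YAs only HMOX1 and AKR1C3 overlapped.

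The sensor and the factor themselves differed little. NFE2L2 (chr2:178083395-178257484 in the GENCODE annotation of GRCh37, minus strand) was at 55.2, 60.1 and 64.2 CPM for Empty A, B and C, 56.1, 54.3 and 56.8 CPM for NF-YAl A, B and D, and 54.7, 50.8 and 52.7 CPM for NF-YAs A, B and C. The NF-YAs libraries lay just below all Empty libraries, and the NF-YAl libraries overlapped with Empty. Neither difference passed, with a log2FC of -0.10 (95% confidence interval -0.30 to 0.09, edgeR adjusted p = 0.411) in NF-YAl and -0.18 (-0.38 to 0.01, adjusted p = 0.131) in NF-YAs. Neither interval reaches below -0.38, and neither shows that the groups are equal. KEAP1 (chr19:10596801-10614234, minus strand) was at 78.7, 91.1 and 83.9 CPM for Empty, 70.4, 79.6 and 85.0 CPM for NF-YAl, and 78.6, 78.3 and 83.1 CPM for NF-YAs. All 3 groups overlapped, with a log2FC of -0.11 (-0.32 to 0.10, edgeR adjusted p = 0.432) in NF-YAl and -0.08 (-0.29 to 0.13, adjusted p = 0.564) in NF-YAs. In these whole-culture libraries, fewer cells that express a gene and less of its RNA per cell cannot be told apart, here and below.

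NQO1, the quinone reductase that carries out a 2-electron reduction of quinones and is a standard readout of NRF2 activity, passed in both NF-YA groups. The gene lies at chr16:69740899-69760571 on the minus strand. It was at 160, 165 and 160 CPM for Empty A, B and C, 95.3, 90.6 and 105 CPM for NF-YAl A, B and D, and 106, 103 and 102 CPM for NF-YAs A, B and C. The lowest Empty library was above the highest NF-YA library. NQO1 fell by 40.2% in NF-YAl (log2FC -0.74, SE 0.0867, edgeR adjusted p = 6.17e-05) and by 36.1% in NF-YAs (log2FC -0.65, SE 0.0866, adjusted p = 1.34e-04). NF-YAl and NF-YAs overlapped, and the log2FC between them was -0.10 (95% confidence interval -0.28 to 0.09, adjusted p = 0.451). Without NF-YAl D or any other single library, NQO1 passed in both comparisons. On the deposited TPM without rescaling, NF-YAl D (85.7) reached into the Empty range (67.0 to 88.9) and neither difference passed, with a log2FC on log2(TPM + 1) of -0.44 in NF-YAl (limma adjusted p = 0.347) and -0.47 in NF-YAs (adjusted p = 0.344). After the rescaling the NF-YAl libraries stood at 50.1, 46.9 and 53.9 TPM against 82.8, 83.9 and 82.7 TPM in Empty.

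**Figure D2:**
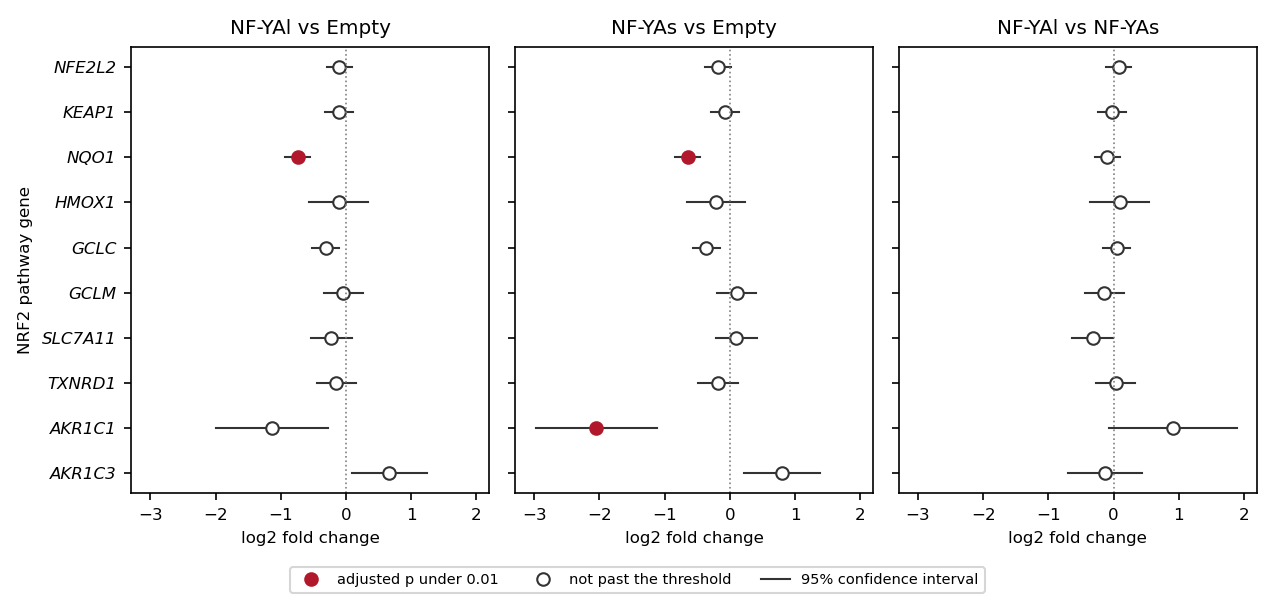
Log2 fold changes of the 10 members in the 3 comparisons, with 95% confidence intervals from edgeR, and red points for an adjusted p under 0.01. NQO1 lies below 0 against Empty in both NF-YA groups (-0.74 and -0.65), AKR1C1 has the widest intervals, and no member is red between NF-YAl and NF-YAs.

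HMOX1, the inducible heme oxygenase, is among the genes most strongly raised by acute oxidative stress. It lies at chr22:35776354-35790207 on the plus strand and was at 10.2, 14.2 and 13.2 CPM for Empty, 15.9, 8.67 and 10.4 CPM for NF-YAl, and 11.3, 10.1 and 11.2 CPM for NF-YAs. The NF-YAl libraries spanned the whole Empty range and more. The log2FC was -0.12 (95% confidence interval -0.56 to 0.33, edgeR adjusted p = 0.718) in NF-YAl and -0.21 (-0.66 to 0.24, adjusted p = 0.463) in NF-YAs, and the second interval reaches -0.66, so a change of that size cannot be told from none here.

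GCLC and GCLM encode the catalytic and the modifier subunit of glutamate-cysteine ligase, which makes the first step of glutathione synthesis. GCLC (chr6:53362139-53481768, minus strand) was at 52.8, 58.6 and 50.5 CPM for Empty, 40.9, 41.8 and 47.9 CPM for NF-YAl, and 42.0, 42.2 and 42.3 CPM for NF-YAs. Every NF-YA library lay below every Empty library. The differences missed the threshold, with a log2FC of -0.31 (SE 0.0962, edgeR adjusted p = 0.0274) in NF-YAl and -0.36 (SE 0.0965, adjusted p = 0.0123) in NF-YAs. Both passed when NF-YAl D was left out (adjusted p = 0.00572 and 0.00361), and DESeq2 called GCLC lower in NF-YAs (adjusted p = 0.00473). GCLM (chr1:94350755-94375012, minus strand) was at 21.6, 19.8 and 18.3 CPM for Empty, 19.0, 17.0 and 21.9 CPM for NF-YAl, and 24.3, 18.4 and 21.5 CPM for NF-YAs. The groups of GCLM overlapped throughout, with a log2FC of -0.04 (-0.34 to 0.26) in NF-YAl and 0.10 (-0.19 to 0.40) in NF-YAs (edgeR adjusted p = 0.852 and 0.591).

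SLC7A11, the light chain of the cystine/glutamate antiporter that brings in cystine for glutathione, differed between the NF-YAl libraries. It lies at chr4:139085251-139163503 on the minus strand and was at 118, 115 and 119 CPM for Empty, 82.5, 90.4 and 128 CPM for NF-YAl, and 140, 113 and 123 CPM for NF-YAs. NF-YAl A and B lay below all other libraries, and NF-YAl D lay above all Empty libraries. With all libraries SLC7A11 did not pass in NF-YAl against Empty (log2FC -0.22, 95% confidence interval -0.54 to 0.09, edgeR adjusted p = 0.269), in NF-YAs against Empty (0.10, -0.22 to 0.41, adjusted p = 0.640) or in NF-YAl against NF-YAs (-0.32, -0.64 to -0.0049, adjusted p = 0.132). Without NF-YAl D it passed as lower in NF-YAl against Empty (log2FC -0.44, adjusted p = 0.00421) and against NF-YAs (-0.53, adjusted p = 0.00205), so 1 library decided both calls. On the deposited TPM without rescaling the log2FC of SLC7A11 in NF-YAl was 0.05 (limma adjusted p = 0.929).

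TXNRD1, the cytosolic thioredoxin reductase, a selenoprotein that keeps thioredoxin reduced, was the most abundant member. It lies at chr12:104609557-104744085 on the plus strand and was at 1234, 1205 and 1313 CPM for Empty, 871, 1191 and 1323 CPM for NF-YAl, and 1066, 1081 and 1168 CPM for NF-YAs. NF-YAs lay just below Empty, while NF-YAl A was the lowest and NF-YAl D the highest of all libraries. Neither difference passed, with a log2FC of -0.15 (95% confidence interval -0.45 to 0.15, edgeR adjusted p = 0.454) in NF-YAl and -0.18 (-0.48 to 0.12, adjusted p = 0.347) in NF-YAs. Depth is not the limit for this gene, which had up to 33367 counts in a library.

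AKR1C1 and AKR1C3 are aldo-keto reductases that reduce ketosteroids. AKR1C3 makes testosterone from androstenedione and is known in prostate cancer for that step, and AKR1C1 inactivates progesterone. In AKR1C1 (chr10:5005445-5025475, plus strand) the counts were low, with 71.9, 105 and 114 expected counts for Empty A, B and C, 58.5, 27.3 and 28.7 for NF-YAl A, B and D, and 18.4, 9.69 and 29.4 for NF-YAs A, B and C. Normalized, these were 3.02 to 4.49 CPM for Empty, 1.10 to 3.13 CPM for NF-YAl, and 0.498 to 1.34 CPM for NF-YAs. The NF-YAs libraries lay below all Empty libraries, and NF-YAl A overlapped with Empty. AKR1C1 fell by 75.8% in NF-YAs (log2FC -2.05, SE 0.427, edgeR adjusted p = 0.00282), and in NF-YAl the log2FC of -1.14 (SE 0.396, adjusted p = 0.0449) did not pass. The call in NF-YAs was lost without Empty B, Empty C, NF-YAs A or NF-YAs B, with adjusted p-values of 0.0111 to 0.0151 and a log2FC of -1.74 to -2.06, and without NF-YAl A the call in NF-YAl was gained (log2FC -1.76, adjusted p = 0.00152). The log2FC between NF-YAl and NF-YAs was 0.91 (95% confidence interval -0.07 to 1.89, adjusted p = 0.164), so the NF-YA groups are not told apart for this gene.

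AKR1C3 (chr10:5077546-5149878, plus strand) had the opposite sign. It was at 3.19, 4.09 and 3.98 CPM for Empty, 8.80, 4.99 and 4.23 CPM for NF-YAl, and 6.57, 5.23 and 7.83 CPM for NF-YAs. Every NF-YA library lay above every Empty library, NF-YAl D by a small margin. The differences missed the threshold, with a log2FC of 0.67 (SE 0.268, edgeR adjusted p = 0.0762) in NF-YAl and 0.80 (SE 0.268, adjusted p = 0.0346) in NF-YAs. Without NF-YAl A, AKR1C3 passed in NF-YAs (adjusted p = 0.00449).

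These genes are close copies, which bears on both values. Over 969 coding bases AKR1C1 differs from AKR1C2 at 19 (98.0% identity) and from AKR1C3 at 83 (91.4% identity), and 51.6% of all 50-base stretches of the AKR1C1 coding sequence occur without a mismatch in AKR1C2. Reads from such stretches can be shared between the copies only by estimation, as RSEM does. The first 120 coding bases of the 3 genes, from the GENCODE annotation of GRCh37, are shown with the 19 positions at which they are not all alike in capitals.
AKR1C1: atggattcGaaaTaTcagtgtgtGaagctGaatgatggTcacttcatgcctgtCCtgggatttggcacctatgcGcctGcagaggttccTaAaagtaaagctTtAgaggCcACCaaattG
AKR1C2: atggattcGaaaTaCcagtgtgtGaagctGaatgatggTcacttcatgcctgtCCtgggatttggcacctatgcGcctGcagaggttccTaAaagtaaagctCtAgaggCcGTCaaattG
AKR1C3: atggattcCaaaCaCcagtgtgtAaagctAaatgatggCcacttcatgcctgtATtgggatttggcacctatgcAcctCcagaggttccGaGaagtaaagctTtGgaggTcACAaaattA

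Over this stretch AKR1C2 differs from AKR1C1 at 4 positions and AKR1C3 at 16. AKR1C2 had 6.29 to 29.0 expected counts per library and AKR1C4 had at most 1. The summed counts of AKR1C1 to AKR1C4 were 163, 235 and 244 with Empty, 248, 160 and 148 with NF-YAl, and 156, 121 and 206 with NF-YAs, and the groups overlapped. Tested as 1 feature, the sum had a log2FC of -0.01 (95% confidence interval -0.62 to 0.60, edgeR adjusted p = 0.983) in NF-YAl and -0.11 (-0.72 to 0.50, adjusted p = 0.793) in NF-YAs. Within the sum, AKR1C1 took 45.2 ± 1.47% of the family's counts in Empty (SD, n = 3), 20.03 ± 3.301% in NF-YAl and 11.4 ± 3.15% in NF-YAs. None of the 3 groups overlapped with another, and the exact permutation test gave p = 0.1 for each pair, the smallest that 3 against 3 libraries allow. How much of the AKR1C1 and AKR1C3 values comes from the sharing of reads between copies was not tested.

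**Figure D3:**
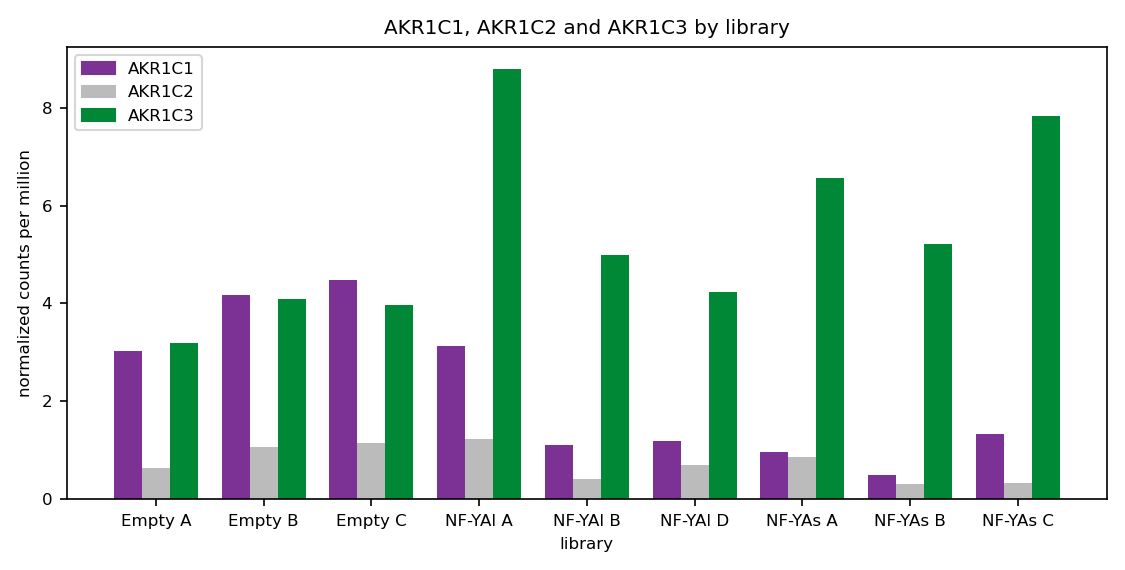
Normalized CPM of AKR1C1, AKR1C2 and AKR1C3 in each library, as bars from 0. AKR1C1 and AKR1C3 are about level in the Empty libraries, and AKR1C3 is the tallest bar in every NF-YA library.

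By the distance between log2 CPM profiles centred over the 9 libraries, the genes most like AKR1C1 among those with at least 5 CPM in a group were EML6 (Euclidean distance 1.11), CXADRP2 (1.19), TSPAN1 (1.21), CTSF (1.21) and RCAN1 (1.22). Their means followed the same order of groups, as in RCAN1 with 341 CPM for Empty, 142 for NF-YAl, and 101 for NF-YAs, and in CXADRP2 with 6.69, 2.51 and 2.47 CPM. AKR1C1 was picked here for its large difference, so the likeness is a description.

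RSEM also estimated the share of each gene's TPM that falls to each annotated RefSeq transcript, and it was compared for the 4 members with more than 1 transcript at a mean of 10% or more in some group, NFE2L2, KEAP1, NQO1 and TXNRD1 (11 transcripts). The NF-YAs libraries stood apart in 1 or more transcripts of KEAP1, NQO1 and TXNRD1, and NF-YAl overlapped with Empty in all 11. In TXNRD1 the transcript NM_001093771.2 took 31.2, 25.9 and 24.9% for Empty A, B and C, 28.9, 26.1 and 28.0% for NF-YAl A, B and D, and 19.1, 19.9 and 19.2% for NF-YAs A, B and C. In KEAP1 the transcript NM_203500.1 took 15.0, 32.8 and 17.9% for Empty, 10.2, 24.0 and 25.0% with NF-YAl, and 9.61, 3.94 and 7.29% with NF-YAs. The rest of KEAP1 fell to NM_012289.3. In NQO1 the transcript NM_001025433.1 took 10.4, 13.2 and 10.3% for Empty, 12.3, 9.82 and 14.2% with NF-YAl, and 5.22, 8.77 and 6.86% with NF-YAs, and the main transcript NM_000903.2 took 79.3 ± 1.11% in Empty and 85.5 ± 1.63% in NF-YAs. In these transcripts NF-YAs overlapped with neither Empty nor NF-YAl. The exact permutation test gave p = 0.1, the smallest possible, in 11 of 33 comparisons and an adjusted p of 0.3 over the 33, so these shares are descriptions. The 2 KEAP1 transcripts make up the whole gene, so their comparisons mirror each other. How often transcripts of other genes stood apart in this way was not counted, so the number is no result about the members. The NFE2L2 transcripts NM_001145412.3 (46.6 ± 2.95% in Empty) and NM_006164.4 (43.5 ± 2.24%) overlapped between all groups.

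**Figure D4:**
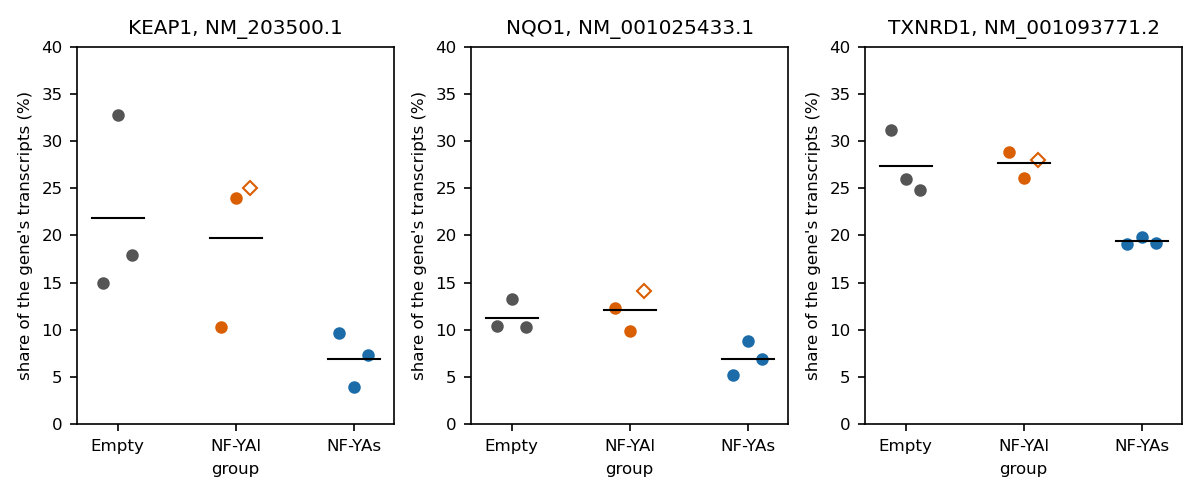
Share, in percent of the gene's TPM, of 1 transcript each of KEAP1, NQO1 and TXNRD1, with points for libraries, an open diamond for NF-YAl D and lines for group means. In each panel the 3 NF-YAs libraries lie below all Empty and NF-YAl libraries, with means of 6.95% in KEAP1, 6.95% in NQO1 and 19.4% in TXNRD1.

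Around the 10 members, the genes of 8 pathway lists were lower more often than higher in both NF-YA groups. Some of these genes encode inhibitors or repressors, such as TXNIP and BACH1, so the counts give no direction of function. Of 106 tested genes in 8 lists of partners, glutathione, thioredoxin, NADPH, heme and iron, detoxification, superoxide and ATF4 response genes, 36 were lower and 8 higher in NF-YAl (34.0% and 7.55%, beside 9.54% and 10% of all tested genes). In NF-YAs 32 were lower and 6 higher (30.2% and 5.66%, beside 10.5% and 12.1%). The median log2FC over the 106 genes was -0.25 in NF-YAl and -0.22 in NF-YAs, and on the deposited TPM without rescaling, where the median of all tested genes itself moved to 0.22 and 0.12, the median of the lists was 0.032 and -0.036. Between NF-YAl and NF-YAs 7 were higher in NF-YAl and 5 lower (6.60% and 4.72%), near the 4.70% and 6.25% of all tested genes. Without NF-YAl D these counts were 12 and 11, while the calls over all genes also went from 1874 of 17108 to 2754 of 17425. AKR1C4 and UGT1A6 had too few counts to be tested. The lists were drawn up with earlier results of these data known and are no independent evidence of a direction. The shares of all tested genes given here also stand beside the counts of each single list below.

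Among NRF2 partners and regulators, 4 of 13 genes were lower and 2 higher in NF-YAl, and 3 were lower and 2 higher in NF-YAs. The genes that were higher, NFE2L1 and NFE2L3, encode relatives of NRF2. NFE2L3 was at 110 CPM for Empty, 180 for NF-YAl, and 238 for NF-YAs (log2FC 0.71 and 1.11, edgeR adjusted p = 4.83e-04 and 1.85e-05). NFE2L1, which controls proteasome genes, had a log2FC of 0.47 and 0.50, both passed. MAFF, a small MAF partner of NRF2, fell in both groups (log2FC -0.63 and -0.80). Of the other small MAF genes, MAFG passed in neither group (log2FC -0.18 and 0.03). MAFK passed as lower in NF-YAl at the very edge of the threshold (log2FC -0.35, edgeR adjusted p = 0.009997) and not in NF-YAs (-0.0011). MAFG and MAFK were named after their values were seen. BACH1, a repressor of HMOX1 and other ARE genes, fell in NF-YAs (log2FC -0.65, adjusted p = 0.00133), and its log2FC of -0.40 in NF-YAl did not pass (adjusted p = 0.0221).

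Of 23 other glutathione genes, 6 were lower and 4 higher in NF-YAl and 4 lower and 2 higher in NF-YAs. In NF-YAl that is 26.1% lower and 17.4% higher, both above the 9.54% and 10% of all tested genes. In NF-YAs it is 17.4% lower and 8.7% higher, beside 10.5% and 12.1%. MGST3, a microsomal glutathione transferase, had a mean of 42.4 CPM for Empty, 31.0 for NF-YAl, and 21.9 for NF-YAs (log2FC -0.45 and -0.96). The genes that were higher in NF-YAl were GSTM2 (log2FC 0.75), GSTM3 (0.63), GPX1 (0.61) and GSTA4 (0.53), and in NF-YAs they were GGCT (0.79), a gamma-glutamyl cyclotransferase, and GPX1 (0.62). GSTM2 and GSTM3 have close copies, so their counts share the limit given for AKR1C1. GPX1 and GSTA4 were named after their values were seen, to complete the count.

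Of 17 thioredoxin and peroxiredoxin genes, 4 passed in NF-YAl and 6 in NF-YAs, all of them lower. TXNIP, which binds and inhibits thioredoxin, was at 286, 328 and 415 CPM for Empty, 151, 230 and 225 CPM for NF-YAl, and 91.4, 92.1 and 118 CPM for NF-YAs. The 3 groups did not overlap. TXNIP fell in NF-YAl (log2FC -0.76, SE 0.178, edgeR adjusted p = 0.00603) and in NF-YAs (log2FC -1.77, SE 0.183, adjusted p = 2.09e-05). On the log2 scale GLRX, glutaredoxin, fell by 1.18 and 0.99, and SESN2, a sestrin, fell by 0.60 and 0.71. GLRX2 fell in NF-YAs (log2FC -0.84) and stood at -0.45 in NF-YAl without passing.

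NADPH is the reductant that thioredoxin and glutathione reductases use. Of 8 genes for its supply, 4 were lower and 1 higher in NF-YAl, and 2 were lower in NF-YAs. ME1, malic enzyme, fell in both groups (log2FC -0.62 and -0.89). TKT, transketolase, fell in NF-YAl (log2FC -0.79), and its log2FC of -0.22 in NF-YAs did not pass (adjusted p = 0.0717). NNT, the mitochondrial transhydrogenase, was higher in NF-YAl (log2FC 1.12, adjusted p = 3.75e-04), at 11.2 CPM against 5.17 in Empty, by edgeR.

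In the heme and iron list, 4 of 10 genes were lower and 1 higher in NF-YAl, and 1 lower and 1 higher in NF-YAs. The counts in NF-YAs are 10% lower and 10% higher, near the 10.5% and 12.1% of all tested genes. FTH1, the ferritin heavy chain that stores iron, passed in both groups. It was at 2288, 2076 and 2226 CPM for Empty, 1043, 1206 and 1242 CPM for NF-YAl, and 1076, 912 and 1035 CPM for NF-YAs. FTH1 fell by 47.0% in NF-YAl (log2FC -0.92, edgeR adjusted p = 8.22e-05) and by 54.1% in NF-YAs (log2FC -1.12, adjusted p = 1.71e-05), with no overlap. The biliverdin reductases BLVRA and BLVRB, which act after heme oxygenase, fell in NF-YAl (log2FC -0.61 and -0.78), as did ABCB6 (-0.46). In NF-YAs BLVRA had a log2FC of 0.01 (95% confidence interval -0.19 to 0.21). SLC40A1, the iron exporter ferroportin, was the gene that was higher in both groups and is named here after its values were seen. It had 0 counts in all Empty libraries and means of 0.751 CPM (NF-YAl) and 1.93 CPM (NF-YAs). Those are at least 6.21-fold and 15.9-fold higher, taken against a floor of 3 counts per library.

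In the detoxification list 6 of 17 tested genes passed in NF-YAl, all of them lower, and in NF-YAs 7 were lower and 1 higher. ALDH3A1, an aldehyde dehydrogenase, was at 26.9, 30.8 and 26.6 CPM for Empty, 7.16, 4.78 and 3.94 CPM for NF-YAl, and 4.42, 4.83 and 3.73 CPM for NF-YAs. It fell by 81.3% and 84.6% (log2FC -2.42 and -2.70, edgeR adjusted p = 4.97e-06 and 2.32e-06). OSGIN1, a gene induced by oxidative stress, fell in both groups (log2FC -1.48 and -0.91). ALDH3A2, which oxidizes fatty aldehydes, fell in both groups (log2FC -0.52 and -1.25), as did CBR1, a carbonyl reductase (-0.79 and -0.84). The 1 gene that was higher in NF-YAs was KYNU, kynureninase (log2FC 2.31), named after its values were seen, at 2.03 to 3.18 CPM against 0.336 to 0.708 CPM in Empty.

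Of the 4 superoxide and peroxide enzymes, SOD3 and CAT passed as lower in both groups. SOD3, the extracellular superoxide dismutase, had a mean of 55.1 CPM for Empty, 18.2 for NF-YAl, and 29.7 for NF-YAs (log2FC -1.61 and -0.89). CAT, catalase, went from 99.3 CPM to 67.9 and 68.1 CPM (log2FC -0.55 in both). In the ATF4 response list, whose factor also acts on SLC7A11, 6 of 14 genes passed in NF-YAl and 7 in NF-YAs, all of them lower. On the log2 scale DDIT3 fell by 0.86 and 1.09, TRIB3 fell by 0.75 and 1.06, and PSAT1, an enzyme of serine synthesis, fell by 0.40 and 0.79. STC2 fell in NF-YAs (log2FC -0.99) and stood at -0.05 in NF-YAl (95% confidence interval -0.29 to 0.18).

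**Figure D5:**
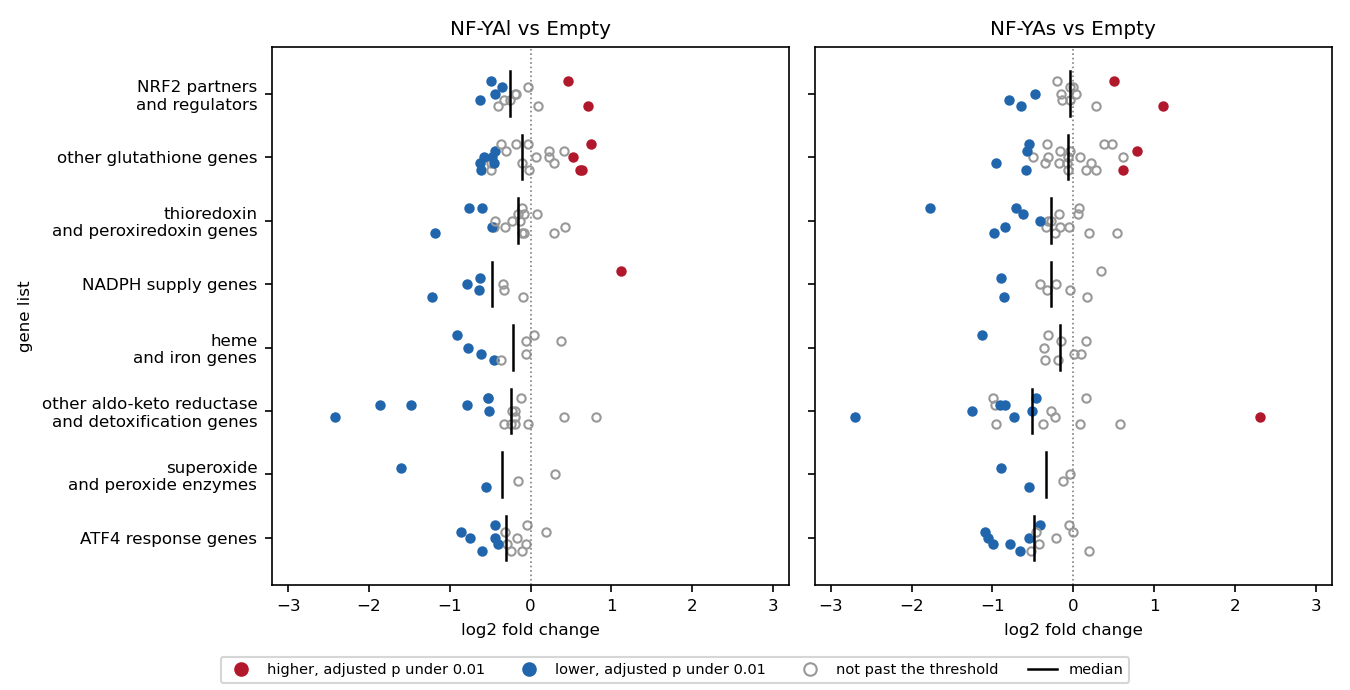
Log2 fold change against Empty of every tested gene of the 8 lists, in NF-YAl and NF-YAs, with filled points for an adjusted p under 0.01 (blue lower, red higher), open points for the rest and a black line for each list's median. SLC40A1, with 0 counts in all Empty libraries, lies beyond the axis and has no measured fold change. Every list's median is below 0 on this count scale, while on the deposited TPM without rescaling the medians of 5 lists in NF-YAl and 3 in NF-YAs are above 0.

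The antisense gene GCLC-AS1 overlaps GCLC and SLC7A11-AS1 overlaps SLC7A11 in the annotation, and NFE2L2 overlaps the protein-coding genes AGPS and HNRNPA3 on the other strand. These are overlaps of whole gene spans, introns included, and whether exons overlap was not checked. The kit keeps strand, and whether the counting used it is not given in the sources used here. Whether reads of these partners are included is therefore not known. Some members also overlap noncoding genes or pseudogenes on the same strand, such as RPL18AP3 in TXNRD1 and RP11-499O7.4 in AKR1C3. KEAP1, HMOX1, GCLM, NQO1, AKR1C1 and AKR1C3 overlap no other protein-coding gene, and TXNRD1 overlaps EID3 on the same strand.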

How the data were processed

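RNA was measured by RNA-seq in 9 libraries of PC-3 MTSs, 3 per group, prepared with a stranded total RNA kit. The authors aligned reads to the human transcriptome (hg19/GRCh37) with Bowtie2 within RSEM and deposited, per gene and per transcript, expected counts, TPM and the percent of a gene's TPM that falls to each transcript (IsoPct). Whether counting used strand is not given in the sources used here. The study names 3 independent experiments, and what the letters of the libraries mark is not given in the sources used here.

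Expected counts were rounded to whole numbers. Genes with low counts were left out with filterByExpr (17108 of 27111 remained), libraries were scaled by TMM, and all 9 libraries entered 1 model with a mean per group in edgeR 4.0.16 (R 4.3.3), tested by the quasi-likelihood F test with Benjamini-Hochberg adjustment over all tested genes. A gene passed at an adjusted p under 0.01, and the study's rule adds an absolute log2FC above 1. TPM were divided by each library's median ratio to the mean library to set levels side by side. Transcript and AKR1C1 shares were compared by two-sided exact permutation tests, which with 3 against 3 libraries cannot go below 0.1. Motifs were searched on both strands in RefSeq promoter windows. Intervals cover the spread between libraries, and floors of 3 counts per library cover counting error only.

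Alternatives were DESeq2 1.42.0, RLE scaling, other filters, only the 2 groups compared, a block by library letter, an effective-length offset, a threshold of 0.05, limma 3.58.1 on log2(TPM + 1) and log2(TPM + 0.1), and leaving out each library. Letter D occurs in NF-YAl D alone, so the block gives that library a term of its own and in effect takes it out of the comparisons. The TPM fit after median scaling, and the lists without NF-YAl D, were added after the data were seen. The fits were tested on simulated data. The members and all gene lists were chosen with earlier results of these data known. Named genes were the 10 members, NFYA, up to 4 genes per list with the largest absolute log2FC among genes that passed and had a group mean of 5 CPM or more, and the 5 genes nearest to the member with the largest absolute log2FC. Some genes that these lists hold are not reported here by name.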

Additional observations from a re-analysis of the deposited data

Results flagged for a closer look

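In 12 genes of the pathway lists the differences of NF-YAl and of NF-YAs from Empty were unequal by the direct test between the NF-YA groups, in edgeR over all tested genes. Of the 106 list genes 6.60% were higher and 4.72% lower, near the 4.70% and 6.25% of all tested genes, so the number is no result about the lists. The log2FC of NF-YAl against NF-YAs was 1.01 for TXNIP (adjusted p = 0.00213), 0.93 for STC2 (adjusted p = 1.34e-04), 0.78 for NNT (adjusted p = 0.00641), 0.73 for ALDH3A2 (adjusted p = 8.65e-04), 0.71 for SESN1 (adjusted p = 0.00834), 0.54 for ASNS (adjusted p = 0.00109) and 0.50 for MGST3 (adjusted p = 0.00858), all higher in NF-YAl. It was -1.89 for KYNU (adjusted p = 0.00150), -0.62 for BLVRA (adjusted p = 7.64e-04), -0.58 for OSGIN1 (adjusted p = 0.00947), -0.57 for TKT (adjusted p = 8.77e-04) and -0.43 for PHGDH (adjusted p = 0.00541), all lower in NF-YAl. TXNIP, ALDH3A2, MGST3 and OSGIN1 were lower than Empty in both groups, BLVRA and TKT passed as lower in NF-YAl, and NNT passed as higher in NF-YAl. STC2, SESN1 and ASNS passed as lower in NF-YAs and KYNU as higher in NF-YAs, while PHGDH passed against Empty in neither group. Of the 10 NRF2 members 0 passed this edgeR test and 0 passed in DESeq2, while SLC7A11 had an unadjusted p of 0.0470 (adjusted p = 0.132) and passed without NF-YAl D (adjusted p = 0.00205).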

How the results depend on the processing

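No difference of a member that passed changed sign under any alternative run, and where a count changed the cause was not tested. The count of members lower in NF-YAl, 1 by the fit used, was 3 at an adjusted p under 0.05, 3 with the replicate block and 0 with limma on deposited TPM for log2(TPM + 1), log2(TPM + 0.1) and no filter alike, and it ran from 1 to 3 when single libraries were left out. In NF-YAs the count lower, 2, was 3 at 0.05, with DESeq2, with the replicate block, with only the 2 groups compared and with at least 10 counts in every library, 1 with limma on log2(TPM + 1) and log2(TPM + 0.1), 0 without a filter, and 1 to 3 when libraries were left out. The count higher there, 0, was 1 at 0.05, 1 with only the 2 groups compared, and 0 to 1 when libraries were left out. Between NF-YAl and NF-YAs the count lower, 0, was 1 with the replicate block and 0 to 1 when libraries were left out, and the pathway lists gave 12 higher and 11 lower without NF-YAl D, where calls over all genes were also more numerous (2754 against 1874). The leave-one-out fits that moved these counts lacked NF-YAl A, NF-YAl D, Empty B, Empty C, NF-YAs A or NF-YAs B. Calls over all genes also changed between fits, as given below for most of them without a split by direction. The member counts are therefore no result about the members.

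The letters were not taken to pair libraries in the fit used. Deviations of same-letter libraries correlated at 0.12 to 0.25 (Empty and NF-YAl, 2 pairs), -0.013 to 0.098 (Empty and NF-YAs, 3 pairs) and -0.065 to 0.13 (NF-YAl and NF-YAs, 2 pairs). Different-letter libraries correlated at -0.22 to 0.035, -0.12 to 0.042 and -0.14 to 0.16 in the same order. For Empty and NF-YAl the same-letter values were above all different-letter values, and for NF-YAl and NF-YAs they lay within that range. For Empty and NF-YAs, letters A (0.077) and C (0.098) were above all different-letter values, and letter B (-0.013) was not. A pairing by letter is therefore not excluded, and the block is given as an alternative. Letter D occurs in NF-YAl D alone, so the block in effect also takes that library out of the comparisons. The block therefore cannot tell pairing by letter from the loss of NF-YAl D. Without NF-YAl D and without a block, 4274, 5023 and 2754 genes passed in NF-YAl, in NF-YAs and between the NF-YA groups. Over all tested genes 3346, 3865 and 1874 passed in NF-YAl, in NF-YAs and between the NF-YA groups, and 4160, 5316 and 2813 did with the block. DESeq2 gave 4168, 4676 and 2871, the fits of only the 2 groups compared gave 2167, 6036 and 1033, a threshold of 0.05 gave 5496, 6065 and 3989, and limma on log2(TPM + 1) gave 1049, 1043 and 478, with 337, 474 and 143 without a filter. Without single libraries the counts ran from 2009 to 4274, 2358 to 5023 and 830 to 2754. On deposited TPM the median of all genes shifted by 0.21 in NF-YAl and 0.13 in NF-YAs. Low counts limit AKR1C1.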
